A study of Mus musculus with 5 samples.

Results

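Cdkn2a, Cdkn2b, Cdkn1a, Trp53 and Mdm2 carry the Arf and p53 growth-arrest pathway, and their surroundings were read here from maps of DNase I hypersensitive sites in mouse 3T9 fibroblasts. These sites are stretches of chromatin that DNase I cuts readily, as at active promoters and enhancers. The sites were those with a called peak in 1 of 4 windows of the mm9 build. The first was chromosome 4 from 88500000 to 89500000, which holds Cdkn2a and Cdkn2b at about 88.92 to 88.96 Mb. The others reached 50 kb either side of position 29228000 on chromosome 17 for Cdkn1a, 69394000 on chromosome 11 for Trp53 and 117148000 on chromosome 10 for Mdm2. These positions are rounded to 1 kb. Of the 52181 sites found in the genome, 75 lay in the 4 windows. The chromosome 4 window held 46 of them, that of Cdkn1a 11, that of Trp53 8 and that of Mdm2 10.

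The cells were 3T9 fibroblasts from E13.5 embryos (day 13.5 of gestation) of mixed strain, with the genotype c-mycflox/flox, infected in culture with MycER. MycER is Myc fused to the hormone-binding part of the estrogen receptor and becomes active when 4-hydroxytamoxifen (4-OHT) binds it. The labels give 2 libraries after 4 h in 400 nM 4-OHT, 2 libraries at 0 h in ethanol vehicle, and 1 input of sonicated genomic DNA with no peak list used here. All groups carried MycER and the floxed alleles. Neither the promoter that drives MycER, nor whether the floxed alleles had been deleted, nor the number of clones or separate cultures is given in the labels. The deposited list of 4-OHT 4 h replicate 1 was identical to that of EtOH 0 h replicate 2, so the 4 lists held 3 distinct ones. They are called the 4-OHT list (replicate 2, 47621 peaks), the mixed-label list (deposited under both treatments, 44956 peaks) and the vehicle list (replicate 1, 35149 peaks). Each treatment thus had 1 list with an undisputed label, no test of treatment was possible, and treatment cannot be told apart from replicate. The peak caller's score is on a scale on which higher means a peak less likely to be noise, and it piles up at 3100. Read depth is unknown, so neither scores nor presence measure a change in accessibility between lists.

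Cdkn2a makes 2 unrelated proteins from separate first exons. The distal promoter gives Arf, which binds and inhibits Mdm2 and so stabilises p53, and the proximal promoter gives p16INK4a, which inhibits the cyclin D kinases Cdk4 and Cdk6. Cdkn2b, its neighbour, encodes p15INK4b, a related inhibitor of the same kinases. Trp53 encodes p53, a transcription factor that acts after DNA damage and oncogene signals. Among its best known targets are Cdkn1a, which encodes the cyclin-dependent kinase inhibitor p21, and Mdm2, which encodes the ubiquitin ligase that degrades p53. In mouse fibroblasts excess Myc raises Arf and p53, and lines established by serial passage often lose the function of one of them. Copy number, sequence and protein were not measured in these files.

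RefSeq has promoter windows for all 5 genes, 7 windows in all on GRCm38.p6, each with 250 bases before and 50 after an annotated start. The pair at Cdkn2a and the pair at Cdkn1a are printed because each gene has starts that differ in sequence and in their peaks, and that of Trp53 because it holds the Myc-type E-box. Capitals mark the motifs searched on both strands. These are the E-box CACGTG, the GC box GGGCGG, the E2F-type TTTCCCGC, the p53 half-site consensus, and the p53 full site of 2 joined half-sites with at most 1 mismatch, which overlaps a half-site wherever it occurs.
Cdkn2a, Arf start, chr4:89294570-89294869, minus strand: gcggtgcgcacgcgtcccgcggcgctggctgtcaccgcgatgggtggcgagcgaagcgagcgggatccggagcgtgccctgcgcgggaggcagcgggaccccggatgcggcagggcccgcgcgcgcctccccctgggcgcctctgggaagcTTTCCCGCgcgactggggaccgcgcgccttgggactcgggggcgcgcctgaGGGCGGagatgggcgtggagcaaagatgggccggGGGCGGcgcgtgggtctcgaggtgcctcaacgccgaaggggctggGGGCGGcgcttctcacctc
Cdkn2a, p16INK4a start, chr4:89282143-89282442, minus strand: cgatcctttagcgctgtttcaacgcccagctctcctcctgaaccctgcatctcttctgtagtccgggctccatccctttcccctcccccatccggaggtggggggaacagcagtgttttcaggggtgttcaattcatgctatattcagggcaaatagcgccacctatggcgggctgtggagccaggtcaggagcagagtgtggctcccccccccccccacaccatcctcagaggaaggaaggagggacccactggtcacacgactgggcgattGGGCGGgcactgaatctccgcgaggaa
Cdkn1a, first start, chr17:29090729-29091028, plus strand: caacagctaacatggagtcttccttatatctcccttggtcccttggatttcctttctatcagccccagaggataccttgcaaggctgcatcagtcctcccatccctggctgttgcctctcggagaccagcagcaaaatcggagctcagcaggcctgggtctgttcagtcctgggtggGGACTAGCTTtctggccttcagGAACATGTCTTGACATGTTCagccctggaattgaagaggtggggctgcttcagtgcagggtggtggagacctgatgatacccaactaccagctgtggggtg
Cdkn1a, second start, chr17:29093519-29093818, plus strand: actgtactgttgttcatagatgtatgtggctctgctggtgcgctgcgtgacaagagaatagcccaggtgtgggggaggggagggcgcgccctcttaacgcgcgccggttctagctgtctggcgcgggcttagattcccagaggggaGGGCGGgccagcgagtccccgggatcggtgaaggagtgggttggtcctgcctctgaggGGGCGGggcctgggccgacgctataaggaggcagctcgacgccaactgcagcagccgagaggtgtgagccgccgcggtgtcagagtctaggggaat
Trp53, chr11:69580109-69580408, plus strand: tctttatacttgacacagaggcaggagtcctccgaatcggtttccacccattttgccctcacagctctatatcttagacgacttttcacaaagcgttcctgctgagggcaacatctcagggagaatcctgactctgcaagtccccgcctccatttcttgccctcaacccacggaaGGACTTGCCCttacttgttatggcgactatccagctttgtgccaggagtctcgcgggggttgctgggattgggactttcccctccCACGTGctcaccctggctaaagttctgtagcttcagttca

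The Arf and p16INK4a windows differed in composition. The Arf window was 77.0% G and C with 45 CpG, more CpG than 98.1% of the 32851 promoter windows of the genome. The p16INK4a window was 60.3% G and C with 12 CpG, more than 60.4% of windows. The Arf window held 3 GC boxes and an E2F-type match, which 1.07% of all windows hold, and the p16INK4a window held 1 GC box (35.7% of all windows hold at least 1). The first Cdkn1a window had 2 CpG and no GC box, and the second had 23 CpG and 2 GC boxes. The first held 2 p53 half-sites (8.36% of all windows hold at least 1), and one of them, at −51 from the start, was part of the full site, which 0.0883% of all windows hold, or 29 of 32851. The Trp53 window held the E-box at position 11 after the start (7.15% of all windows hold one) and a p53 half-site. The Mdm2 window held a p53 half-site and 2 GC boxes, and that of Cdkn2b 1 GC box. The other 6 windows had no CACGTG and none but the first of Cdkn1a had the full p53 site. A match is a description of these letters only.

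Every gene had a strong peak in all 3 lists at or near its start, called its start-side peak. At the 40 kb that hold Cdkn2a and Cdkn2b there were 3 sites and no others, each with a peak in every list, as 61.1% of all sites of the genome had. RefSeq places the p16INK4a, Arf and Cdkn2b starts in this order on the minus strand, with 12.4 kb and 16.4 kb between them on GRCm38.p6. The centres of the 3 sites, in the same order, lay 12.4 and 15.9 kb apart in the 4-OHT list, 12.5 and 15.9 kb in the mixed-label list and 12.6 and 15.8 kb in the vehicle list. The sites are called by these starts from their order and spacing, since no mm9 annotation was used here. In RefSeq order the noncoding RNA Gm12610 lies between Cdkn2a and Cdkn2b. Its start was not located, so the names do not assign the sites to Cdkn2a and Cdkn2b alone.

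The Arf site lay on chromosome 4 at 88939393 to 88942221 and scored 3100 in the 4-OHT, mixed-label and vehicle lists alike. Its peak was 2785 bp wide in the 4-OHT list, 2829 bp in the mixed-label list and 2423 bp in the vehicle list, wider than 93.0% or more of the peaks of each list. The Cdkn2b site at 88955804 to 88957605 also scored 3100 in all 3 lists, with widths of 1748, 1802 and 1664 bp in the same order. Both are at the pile-up of the score, where differences between lists cannot be seen.

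The p16INK4a site at 88927469 to 88929094 was the lowest of the 3. It scored 2897 in the 4-OHT list, 2896 in the mixed-label list and 1393 in the vehicle list. The 4-OHT and mixed-label lists were nearly equal and the vehicle list was low. The score was 2.08 times the vehicle score in each of them. That ratio had a median of 1.63 for the 4-OHT list and 1.82 for the mixed-label list over the shared sites of the genome below the pile-up. Within each list the p16INK4a peak scored above 88.7% of the peaks of the 4-OHT list, 84.3% of those of the mixed-label list and 79.0% of those of the vehicle list. Its widths of 1426, 1511 and 1496 bp in the same order differed less than its scores.

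At Trp53, 1 broad peak covered the gene position in every list. It was 3943 bp wide in the 4-OHT list, 4124 bp in the mixed-label list and 3951 bp in the vehicle list, wider than 98.7% or more of each list's peaks, and scored 3100 in all of them. Its site, on chromosome 11 at 69391561 to 69395684, was the widest of the 75. Its neighbour in RefSeq order before the start is Wrap53, which lies head to head with Trp53 and encodes a telomerase and Cajal body protein. The peak is not assigned to 1 of these genes.

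At Mdm2 a peak of 1878 bp in the 4-OHT list, 2004 bp in the mixed-label list and 1800 bp in the vehicle list covered the gene position, with scores of 3100, 3100 and 3044 in that order. The site lay on chromosome 10 at 117146558 to 117148561. The vehicle score was just under the pile-up. A second Mdm2 promoter in the first intron, which p53 drives, is known, but its place was not resolved here.

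At Cdkn1a no list had a peak within 1 kb of the gene position, which is why Trp53 and Mdm2 alone met the distance set for a promoter peak. The nearest peak began 2.15 kb and ended 5.23 kb past the position in the 4-OHT list, 2.12 and 5.14 kb in the mixed-label list, and 2.08 and 5.21 kb in the vehicle list. RefSeq gives Cdkn1a 2 starts 2.79 kb apart on the plus strand of GRCm38.p6, the second of them in the CpG-rich window printed above. A distance of 2.79 kb from the position falls inside the peak in every list. The window of the first start, with the p53 full site, lies before the second by that distance. No peak covered the gene position itself in any list, which at unknown depth is an absence of a call and does not show closed chromatin.

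The Cdkn1a peak was 3075 bp wide in the 4-OHT list, 3024 bp in the mixed-label list and 3135 bp in the vehicle list. It scored 3100 in the 4-OHT and mixed-label lists, against 2099 in the vehicle list, the second largest gap between lists among the 6 start-side sites after p16INK4a. The ratio to the vehicle score was 1.48 for each, with the higher score at the pile-up. Medians over shared sites of the genome below the pile-up were 1.63 for the 4-OHT list and 1.82 for the mixed-label list. Within its list the vehicle peak scored above 86.1% of all peaks. Its site lay on chromosome 17 at 29230080 to 29233227.

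**Figure D1:**
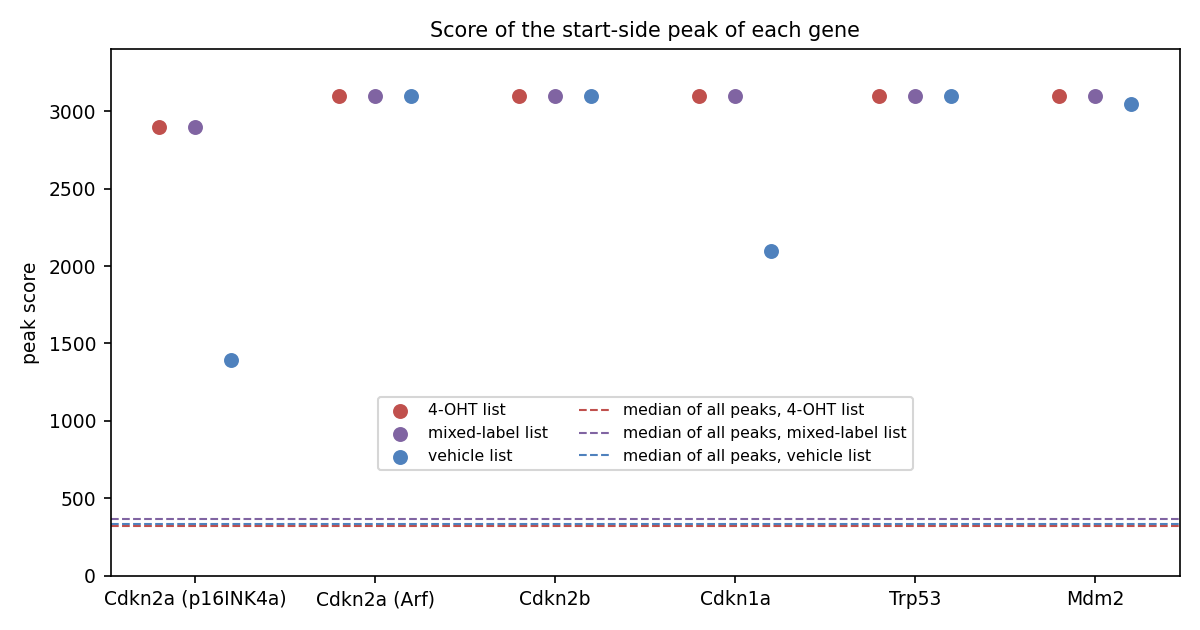
Score of the start-side peak of each gene (y axis, caller's score, no unit) in the 4-OHT, mixed-label and vehicle lists, 1 point per list; dashed lines mark the median of all peaks of each list (322, 365 and 331). Arf, Cdkn2b and Trp53 stand at 3100 in every list, and the vehicle points of p16INK4a (1393) and Cdkn1a (2099) stand lowest.

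Sites that score at least 3100 in every list were 3 of the 75, the Arf, Cdkn2b and Trp53 sites, or 4.00% (Wilson 95% interval 1.37% to 11.1%, counting error only). Over the genome this share was 5.23%, which lies inside that interval. The 6 start-side sites were taken by place, as those in the 40 kb of Cdkn2a and Cdkn2b and the nearest to each other gene position. The Cdkn1a position, which no peak covered, did not itself enter. Median scores of the 6 were 3100 in the 4-OHT list, 3100 in the mixed-label list and 3072 in the vehicle list. The 69 other sites had median scores of 281, 294 and 211 in the same order. Of these 69, 41 had a peak in every list, as 61.1% of all sites of the genome had.

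The chromosome 4 window was mapped for stretches without peaks. The genes stood inside a region with peaks on both sides. On this chromosome, before and after mean lower and higher coordinates. Both genes are on the minus strand, so sites before them lie downstream of their starts. Before the 40 kb of the genes, 420 kb held 30 sites, of which 29 had a peak in the 4-OHT list, 26 in the mixed-label list and 21 in the vehicle list. After them, 540 kb held 13 sites, of which 12, 12 and 11 had a peak in the same lists. All 13 lay in the part nearest the genes, and the last 308 kb of the window held none. The last, at 89190001 to 89192194, scored 581 in the 4-OHT list, 801 in the mixed-label list and 240 in the vehicle list.

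From there no list had a peak up to 91041202, past the end of the window. The stretch was 1.85 Mb long over the 3 lists, and its length was 1849 kb in the 4-OHT list, 1849 kb in the mixed-label list and 1851 kb in the vehicle list. The same site began it in every list. Among the 51330 distances between neighbouring sites of the autosomes it ranked 137, and 0.267% of distances were as long or longer. Of these distances, 313 were 1 Mb or longer. The median distance was 11659 bp. The stretch began 251 kb from the centre of the Arf site, on the Cdkn2b side. The next protein-coding genes after Cdkn2b in RefSeq order are Dmrta1, a transcription factor of the DM-domain family, then Zfp352 and Elavl2, which encodes a neuronal RNA-binding protein. Their mm9 positions were not used.

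Past the stretch, a site at 91042705 to 91043817 scored 1747 in the 4-OHT list, 1730 in the mixed-label list and 1105 in the vehicle list. A weaker site of the 4-OHT and mixed-label lists, just before it, ends the stretch. Counted by Mb over the 3 lists, the chromosome 4 window held 46 sites. The 3 Mb before it, going outward, held 27, 4 and 19, and the 3 Mb after it held 0, 3 and 0, so sparse Mb lay on both sides. Tiles of 1 Mb over the autosomes had a median of 14 sites, and 13.8% of them held 46 or more. Empty tiles were 14.7% of them, so a Mb without sites was not rare.

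Shorter stretches empty in every list lay on both sides of the genes. Before the genes, no list had a peak in the 50.7 kb from 88523223 to 88573942, and in the vehicle list this stretch was 59.3 kb long. From the end of the Cdkn2b site, 56.7 kb had no peak in any list, up to a site at 89014348 to 89015585 that scored 257 in the 4-OHT list, 529 in the mixed-label list and 147 in the vehicle list. After its neighbour at 89016954 to 89017938, a further 74.3 kb had none. Stretches at least this long were common. Of all distances between neighbouring autosomal sites, 15.8% were at least as long as the stretch of 50.7 kb, 13.9% as that of 56.7 kb and 10.3% as that of 74.3 kb. The vehicle list also lacked peaks over 69.2 kb and 88.2 kb before the genes, where the other lists had peaks scoring up to 431.

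**Figure D2:**
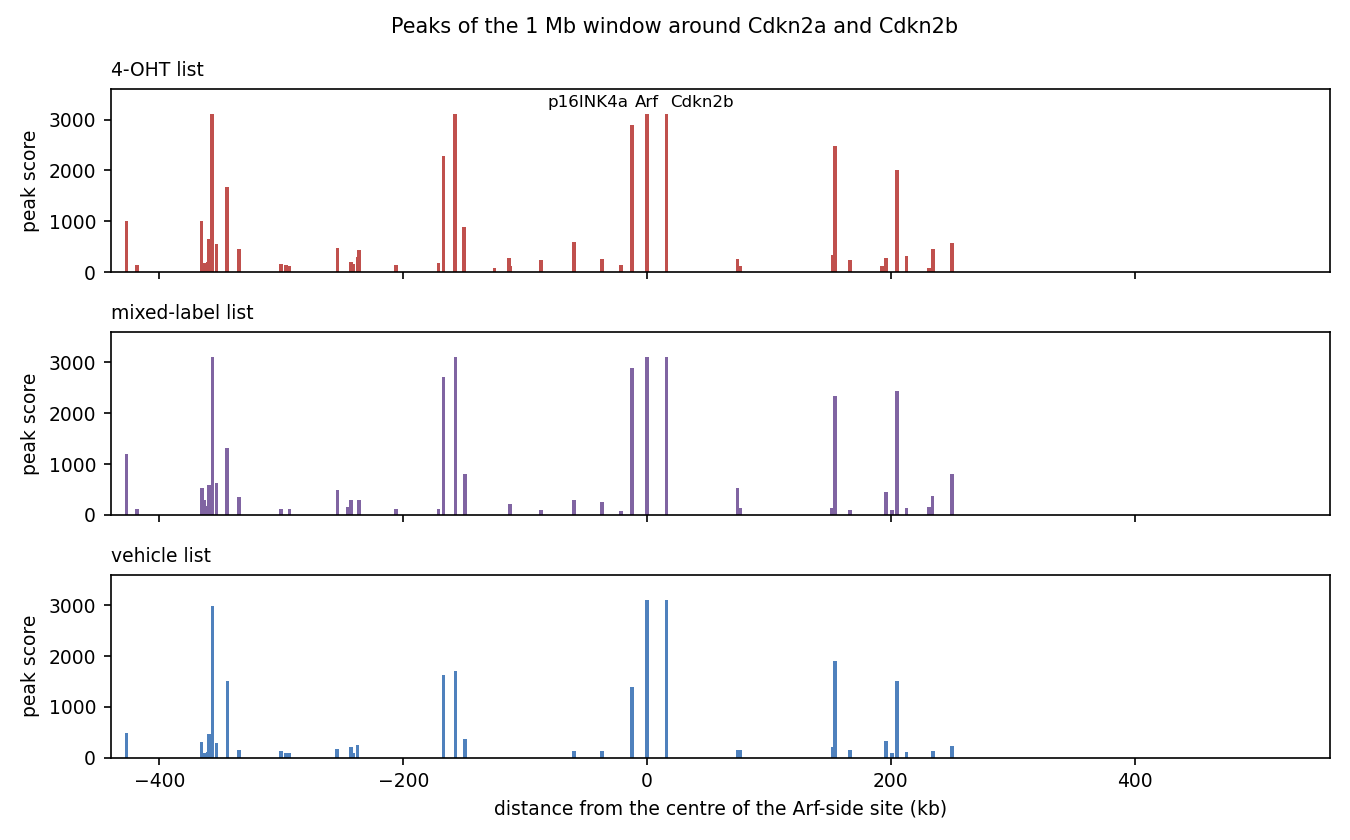
Peaks of the 1 Mb window around Cdkn2a and Cdkn2b, by distance from the centre of the Arf site (x axis, kb) and caller's score (y axis), with 1 panel for each list and bars drawn at least 3 kb wide. In every panel the Arf peak stands at 0, with the p16INK4a peak close to its left and the Cdkn2b peak close to its right. No list has a peak in the window beyond 251 kb.

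**Figure D3:**
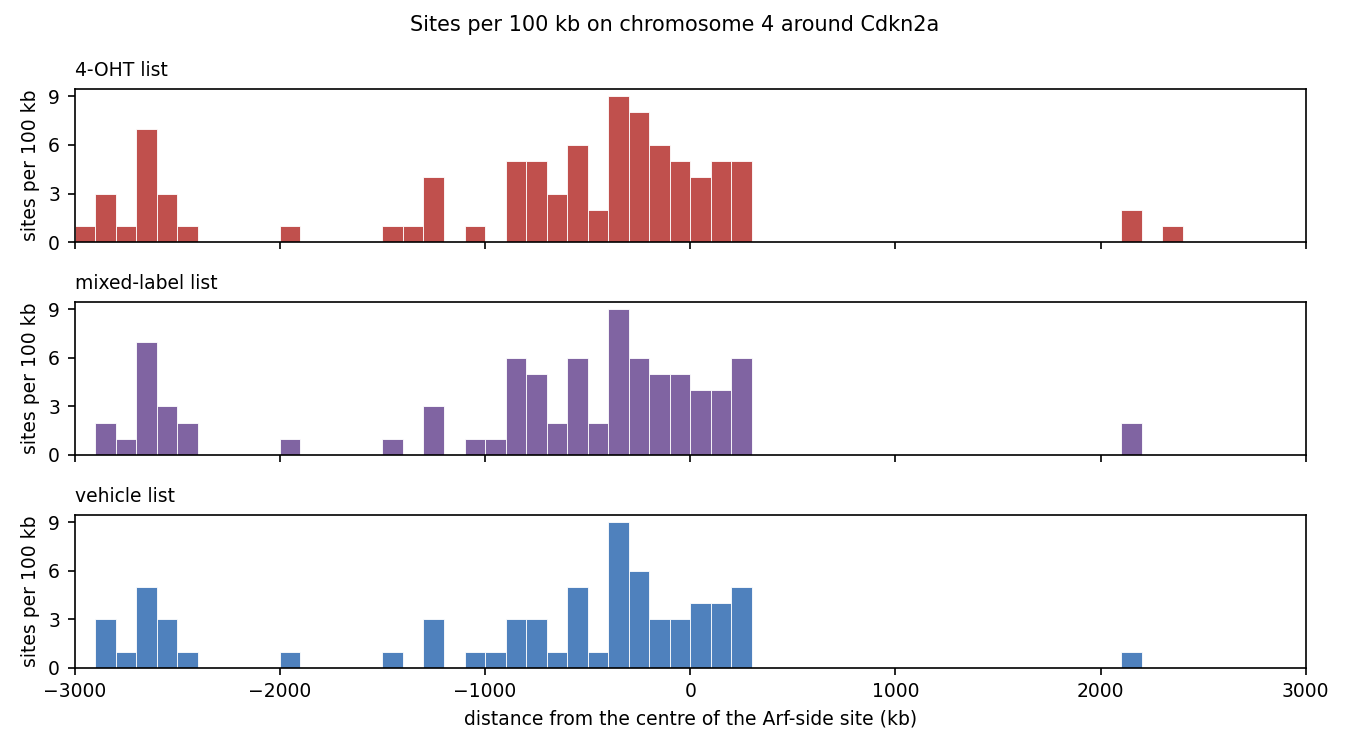
Sites per 100 kb (y axis) by distance from the centre of the Arf site (x axis, kb), over 3000 kb to each side, with 1 panel for each list. Each list has up to 9 sites per 100 kb before the genes with bins of 0 also there, such as those from -2400 to -2000 kb, and 0 between 300 and 2100 kb after them.

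Sites scoring at least 1000 in every list, a threshold chosen after the values had been seen, were 12 of the 75, or 16% (9.40% to 25.9%), against 18% over the genome. They were the 6 start-side sites and 6 others, all 6 in the chromosome 4 window, which is 1000 kb long where each of the other windows is 100 kb. That window had 9 such sites of 46, or 19.6% (10.7% to 33.2%), and the others 1 each, of 11 around Cdkn1a, 8 around Trp53 and 10 around Mdm2. A site of the Cdkn1a window and one of the Mdm2 window, described with those genes, fell short in the vehicle list alone, with vehicle scores of 937 and 812. So did the chromosome 4 site at 88513032 to 88514678, with 1001 in the 4-OHT list, 1207 in the mixed-label list and 491 in the vehicle list. The strongest of the 6, at 88583259 to 88585173, lay 357 kb before the centre of the Arf site and scored 3100 in the 4-OHT list, 3100 in the mixed-label list and 2993 in the vehicle list. The site at 88782417 to 88784656, 157 kb before it, scored 3100, 3100 and 1705 in that order. Close to it, at 88772768 to 88775054, the scores were 2277, 2722 and 1630. On the Cdkn2b side, the site at 89093973 to 89095761 scored 2480 in the 4-OHT list, 2349 in the mixed-label list and 1905 in the vehicle list. It closes the gap of 74.3 kb with a weaker site beside it. The site at 89145142 to 89146402 scored 2011, 2433 and 1503 in that order. The sixth, at 88595372 to 88597339, scored 1668, 1312 and 1506, and there the mixed-label list was lowest.

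In RefSeq order the genes before Cdkn2a are Mtap, which encodes an enzyme of methionine salvage, and then the noncoding RNAs Gm12602 and Wincr1. The distant sites could not be given to genes without mm9 positions. The density of sites was not even. In bins of 100 kb, the first 3 of the window held 9, 8 and 7 sites over the 3 lists, the fourth 4 and that of the genes 5.

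Around Cdkn1a, 8 of 11 sites had a peak in every list, against 61.1% of all sites of the genome. Most sites of this window lay before the gene. With a score of at least 100, 5 sites of the window had a peak in every list, and the share over the genome at that setting was not worked out. The strongest after the start-side site lay on chromosome 17 at 29214767 to 29216775, 11.2 kb before the gene position. It scored 1027 in the 4-OHT list, 1151 in the mixed-label list and 937 in the vehicle list, so the lists were closer here than at the start-side site. A group of 6 sites lay 27.9 to 43.8 kb before the position. Of these the site at 29194324 to 29195995 was strongest, with scores of 584, 718 and 381 in the 4-OHT, mixed-label and vehicle lists. The outermost, at 29181034 to 29184221, was called as 2 peaks in the 4-OHT and mixed-label lists and 1 in the vehicle list. In RefSeq order the nearest gene on that side is Trp53cor1, the noncoding lincRNA-p21 that p53 induces, and the next coding gene Srsf3, a splicing factor. Beyond the gene, sites at 34.0 and 43.0 kb had no vehicle peak.

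Around Trp53, 5 of 8 sites had a peak in every list, against 61.1% of all sites of the genome. Next to the broad start-side site the strongest was at 69359301 to 69361646, 32.4 kb before the gene position, with 738 in the 4-OHT list, 1193 in the mixed-label list and 494 in the vehicle list. The mixed-label list was highest and the vehicle list lowest. All the other sites lay after the position, from 11.4 to 47.4 kb. The genes there in RefSeq order are Atp1b2, a subunit of the sodium pump, Shbg and Sat2. Of these sites the one at 69427091 to 69428266 was strongest, with scores of 433, 563 and 237 in the 4-OHT, mixed-label and vehicle lists.

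Around Mdm2, 3 of 10 sites had a peak in every list, against 61.1% of all sites of the genome. These 3 were the fewest of the 4 windows, a difference that was not tested. Besides the start-side site these were a site 6.25 kb past the gene position, at 117154250 to 117156191, and one 35.2 kb past it, at 117183205 to 117184113. The nearer scored 350 in the 4-OHT list, 321 in the mixed-label list and 270 in the vehicle list. The farther scored 1347, 1765 and 812 and had widths of 686, 901 and 843 bp in the same order, with 8.43%, 24.7% and 15.7% of the peaks of each list narrower. Mdm2 is on the minus strand, so both lie before its start, on the side where Slc35e3 and Nup107 follow in RefSeq order. On the side of the gene body and Cpm, 3 sites had a peak in the 4-OHT or mixed-label lists, with scores of 81.1 to 107, and none had one in the vehicle list. Without the vehicle list, 6 of the Mdm2 sites had a peak in every remaining list, and the share over the genome was not worked out for that setting. The Mdm2 sites missing from a list scored at most 268 in any other.

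**Figure D4:**
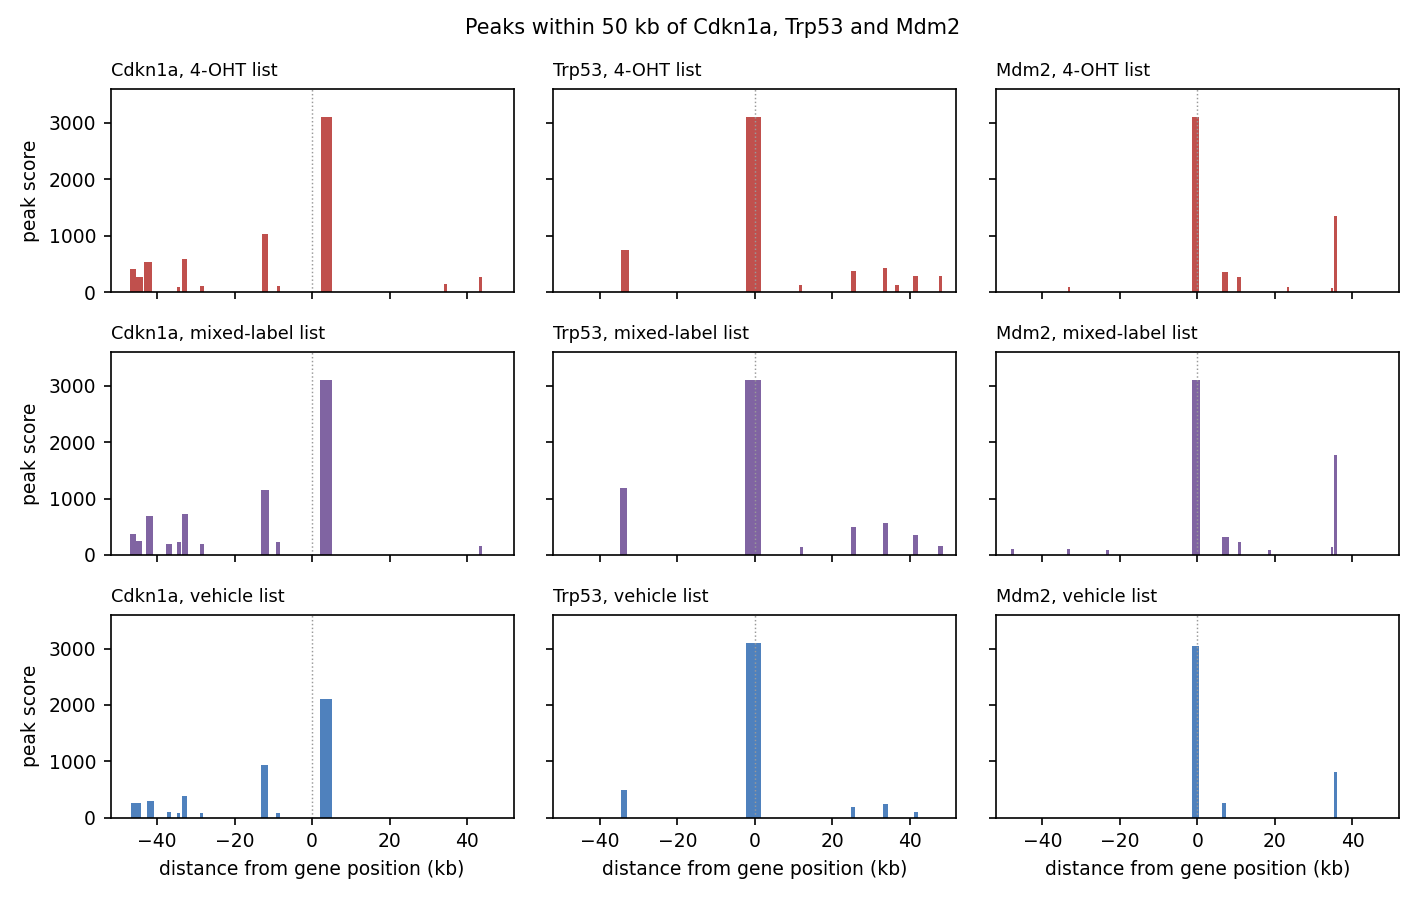
Peaks within 50 kb of the positions of Cdkn1a, Trp53 and Mdm2 (columns), by distance from the position (x axis, kb) and caller's score (y axis), for the 4-OHT, mixed-label and vehicle lists (rows, top to bottom). The Trp53 and Mdm2 peaks cover 0 in every row, and the Cdkn1a peak begins 2.08 to 2.15 kb past it.

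Windows of 100 kb over the autosomes had a median of 1 site, and 45.8% had none. At least as many sites as around Cdkn1a were found in 2.85% of them, at least as many as around Mdm2 in 3.87% and at least as many as around Trp53 in 7.13%. These windows were set around gene starts, and the tiles were not.

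Sharing between lists in the 4 windows lay near that of the genome. A peak in every list was found at 47 of the 75 sites, or 62.7% (51.4% to 72.7%), against 61.1% of all sites. The 4-OHT list had 69 of the sites, and the vehicle list lacked 19 of these, or 27.5% (18.4% to 39.0%), against 29.6% over the genome. The mixed-label list had 67, and the vehicle list lacked 18 of these, or 26.9% (17.7% to 38.5%), against 26.6%. The vehicle list had 52, and the 4-OHT list lacked 2 of these, or 3.85% (1.06% to 13.0%), against 3.87%. The genome-wide share lay inside the interval each time. With the 35149 top-scoring peaks of every list, 8 sites were in the 4-OHT list and not the vehicle list and 8 the other way round, so the excess on the 4-OHT side was not seen at equal length. With a score of at least 100, the counts were 18 and 0 in the same order. Lists of equal length draw such counts together by construction. Shares over the genome at these 2 settings were not worked out, so the counts are not read as a trait of the windows.

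Of the 19 sites without a vehicle peak, 13 scored under 200 in the 4-OHT list and 6 scored 241 to 431. The 13 were among 22 sites scoring under 200, or 59.1% (38.7% to 76.7%), against 71.1% over the genome. The other 6 were among 47 sites scoring 200 or more, or 12.8% (5.98% to 25.2%), a higher share than the 6.23% over the genome, which lies just inside the interval. None of the 19 was a start-side site. The strongest lay on chromosome 4 at 88704126 to 88705141, with 431 in the 4-OHT list and 298 in the mixed-label list. It was 1 of 10 without a vehicle peak among the 44 sites of the 4-OHT list in that window. Its 4-OHT score was above those of 57.1% of the peaks of the 4-OHT list. Those at 88827070 to 88829160 (scores of 284 and 225) and 88853428 to 88854431 (241 and 99.5) followed there. Around Trp53 there were 3 among 8 sites of the 4-OHT list, the strongest at 69441363 to 69442457 (281 and 151). Around Cdkn1a there were 2 among 10, the stronger at 29271019 to 29271943 (275 and 151). Around Mdm2 there were 4 among 7, the strongest at 117158291 to 117159273, 10.3 kb past the gene position (268 and 235). The others around Mdm2 scored 80.7 to 92.5 in the 4-OHT list, near the floor of the scores. Over the genome the vehicle list lacked 29.6% of the sites of the 4-OHT list. Differences between windows were not tested. Of the 19 sites, 14 also had a peak in the mixed-label list, which carries both treatment labels. The share over the genome was not worked out, so 14 is not read as a trait of the 19 sites.

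The site nearest to p16INK4a was among them. It lay on chromosome 4 at 88918796 to 88919831, just outside the 40 kb of the genes, with 144 in the 4-OHT list and 85.6 in the mixed-label list, near the floor of the scores. The remaining 12 scored between 80.7 and 187 in the 4-OHT list. Of sites called with vehicle and not in the 4-OHT list, both were weak, lying on chromosome 4 at 89141389 to 89142360, with 101 in the mixed-label list and 97.8 in the vehicle list, and on chromosome 17 at 29190359 to 29191827, with 201 and 95.8 in that order.

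At sites with a peak in every list most scores were higher outside the vehicle list. Of the 47 such sites, 40 had a higher 4-OHT than vehicle score, 4 had a lower one and 3 were equal at 3100. Over the genome 83.6% of shared sites scored higher in the 4-OHT list. The mixed-label list was higher than the vehicle list at 39 of the 47, against 84.9% over the genome. Below the pile-up, the 4-OHT to vehicle score ratio had a median of 1.64 at 40 sites of the windows and 1.63 over the genome. It was 2 or more at 11 of the 40, against 7971 of 26940 sites over the genome. The ratio of the mixed-label to the vehicle score had a median of 2.03 at 40 sites of the windows and 1.82 over the genome. It was 2 or more at 21 of the 40, against 10262 of 25288 sites over the genome. The difference between windows and genome was not tested. The largest ratio of the 4-OHT to the vehicle score, 4.32, was at 88879919 to 88881703, which scored 589 in the 4-OHT list, 294 in the mixed-label list and 136 in the vehicle list. The smallest, 0.737, was at 89016954 to 89017938, with 113, 142 and 154 in that order.

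**Figure D5:**
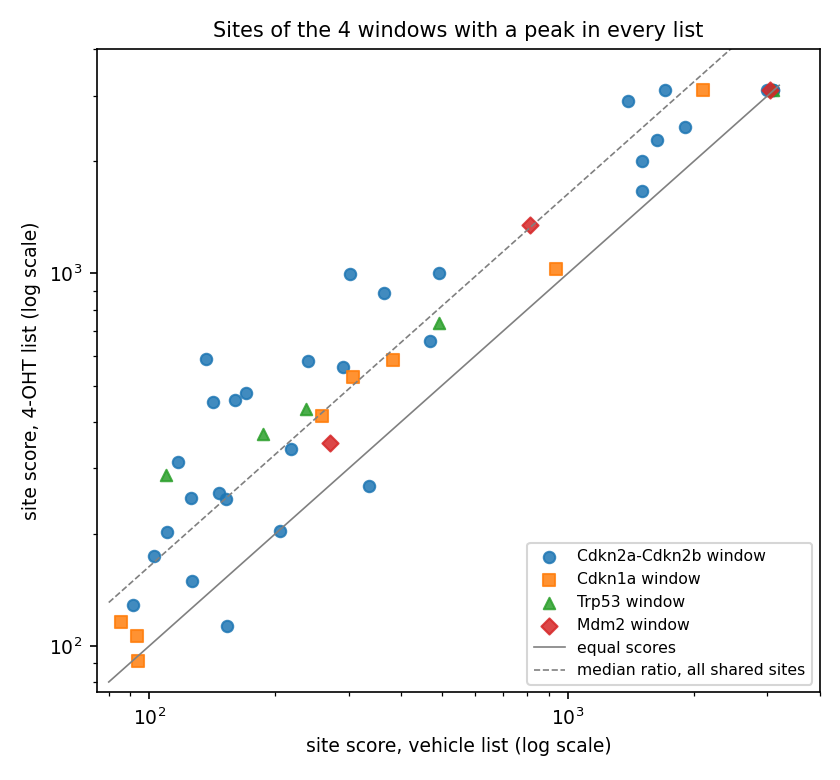
Score in the 4-OHT list (y axis) against score in the vehicle list (x axis), both on log scales, for the 47 sites of the 4 windows with a peak in every list, by window. The solid line marks equal scores and the dashed line the median ratio of 1.63 over shared sites of the genome; 40 sites lie above the solid line.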

How the data were processed

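DNase-seq peak lists of 4 libraries were used. The authors deposited a position and a score for each peak. The submitters' processing notes name BWA 0.6.2, SAMtools, MACS 1.4.1 and mm9, but no settings. No header defines the score, which is taken from its values to be the transformed p-value that MACS gives. Use of the input, pooling and depth are not given in the sources used here. The members and lists were chosen with earlier results of these data known.

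Peaks of the 3 distinct lists that overlapped by at least 1 bp were merged into sites, and a site's score is its highest peak score in a list. Starts are counted from 1. A promoter peak lay within 1 kb of the gene position. On simulated lists the merge gave the same 2189 sites, with the same lists, as a second merge by the same overlap rule. That checks the code only, not the recovery of planted sites. Named sites were those at the starts, the highest-scoring of each window, those bounding stretches without peaks, and those in 1 of the 4-OHT and vehicle lists. Others were chosen after their values were seen. Shares carry Wilson 95% intervals, which cover counting error over sites only. No mm9 annotation was used, so other pathway genes and fibroblast markers, though planned, were not located. Promoter sequences came from RefSeq (GRCm38.p6), matched by symbol for 5 of 5 genes, and gene order from the RefSeq gene table of the same assembly. Alternatives were equal list length, score minimums, other windows, distances and merging, and leaving out each list. Python 3.11.15, numpy 2.4.6, scipy 1.17.1, pandas 2.3.3 and matplotlib 3.10.9 were used.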

Additional observations from a re-analysis of the deposited data

How the results depend on the processing

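Sites of the windows in the 4-OHT list and not in the vehicle list went to 8 in place of 19 at equal list length and to 5 with the repeated list taken as a vehicle list. They were 14 with it taken as a 4-OHT list, 18 and 14 with the score minimum of 100 and 17 when merged within 500 bp. Sites in the vehicle list and not in the 4-OHT list were 8 in place of 2 at equal length, and 0 with a score of at least 100, with that score for presence only, and with the repeated list taken as a 4-OHT list. The lowest scores kept at equal length were 148 (4-OHT list) and 138 (mixed-label list), so that setting leaves out their weakest peaks. Sites in every list numbered 38 to 57 over the other settings, and 49 to 62 when each list was left out. Without the vehicle list the Mdm2 window had 6 such sites in place of 3. The Cdkn1a window had 5 in place of 8 at equal length and with a score of at least 100. The stretch of 1849 kb was 1851 kb in the vehicle list on its own and kept its length within 1 kb under the other settings. Cdkn1a met the promoter distance at 2.5 kb, which made 3 genes in place of 2. No paired analysis was possible because no result comes from a test and the repeated list sits in both replicate pairs. Shares over the genome were not worked out under the alternative settings, so these counts have no background beside them. Depth is unknown, so absence of a peak means only that none was called.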
